A study of Rattus norvegicus with 4 samples.

Results

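The BCL2 family genes examined here were Bcl2, Bcl2l1, Bcl2l2, Mcl1, Bax, Bak1, Bad, Bid, Bcl2l11 and Bbc3. They were found on the arrays through the RefSeq accession that each probe carries, which gave 16 probes for all 10 genes, out of 41012 probes in all. The cells were PC12, a line derived from a rat pheochromocytoma, which is a tumour of the catecholamine-producing chromaffin cells of the adrenal medulla. No functional MAX protein is made by PC12 cells, as is known from earlier work. MAX is the protein that MYC proteins need as a partner to bind DNA. Of 2 lines, one was nucleofected with an empty vector and the other with an expression plasmid for MAX, and both were selected with a drug that the labels call E418, so both groups went through transfection and selection. Each line was sampled at passages 8 and 13 and hybridised to 2 one-colour arrays, 4 in all. The labels name neither the passage behind each replicate nor whether a line is a clone or a pool. The p-values thus measure the spread between passages of 1 line per group. In the MAX vector group this spread also holds a difference of slide, with replicate 1 on slide 2 and replicate 2 on slide 1.

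BCL2 family proteins control whether the outer mitochondrial membrane is opened, the committing step of the intrinsic route to apoptosis. Bax and Bak are the effectors that form pores in that membrane, and the anti-apoptotic members Bcl-2, Bcl-xL, Bcl-w and Mcl-1 hold them in check. The BH3-only members, among them Bad, Bid, Bim and Puma, sense stress and either neutralise the anti-apoptotic members or activate the effectors. MYC activity is known to lower the threshold of many cells for this route. In PC12 cells, apoptosis after loss of trophic support is a classical experimental model.

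In cells with the MAX vector the messenger RNA levels of the 10 genes lay close to those of cells with the empty vector. Of the 10 genes, 0 were called by limma at an adjusted p of 0.05 (Benjamini-Hochberg adjustment over all genes tested), and 1, Bak1, had an unadjusted p under 0.05. Over all 25356 genes tested, 0.840% passed the adjusted threshold, 0.576% higher and 0.264% lower with MAX, and 16.1% had an unadjusted p under 0.05. The split of all calls was not stable: 146 were higher and 67 lower, but 78 higher and 89 lower without MAX vector replicate 2, and 429 against 370 with another background correction (normexp). In such bulk RNA, fewer cells of a type and less RNA per cell cannot be told apart. A p that misses the threshold does not show that levels did not differ, so the intervals are given as well. The log2 fold changes of the 10 genes ran from -0.34 to 0.23 with a median of 0.04, against a median of -0.02 over all genes. The 95% interval of each of the 10 lay within a 2-fold change in either direction, as did 82.5% of the intervals over all genes. For 9 of the 10, Bak1 being the exception, the interval also lay within 1.5-fold. These intervals are for single genes and are not adjusted for the number of genes. They hold for this fit only and were not compared between ways of processing the data. The SEs of the 10 genes were 0.09 to 0.14 here. With scaling by each array's median they were larger, from 0.15 for Bcl2 to 0.19 for Bid. There 0 of the 10, Bak1 included, had an unadjusted limma p under 0.05.

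The values below are log2 signals relative to the array's own 75th percentile, so that 0 is the level of a fairly bright probe and each step of 1 is a doubling. The brightest probe of a gene is its main probe, and log2 fold changes are MAX vector over empty vector, each given ± its SE (n = 2 arrays per group). Signals of different probes cannot be set against each other, since each probe binds its target with its own efficiency. All 10 main probes were well above background on all 4 arrays. The arrays of the groups did not overlap for 3 of the 10 genes, 2 higher and 1 lower with MAX. For 1 of the 2 higher, Bcl2, the nearest arrays of the groups were level to 2 decimals, both at -3.56. Of all genes tested, 50.3% did not overlap, 24.3% higher and 26.0% lower, so that the share in the family is no larger than this background.

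**Figure D1:**
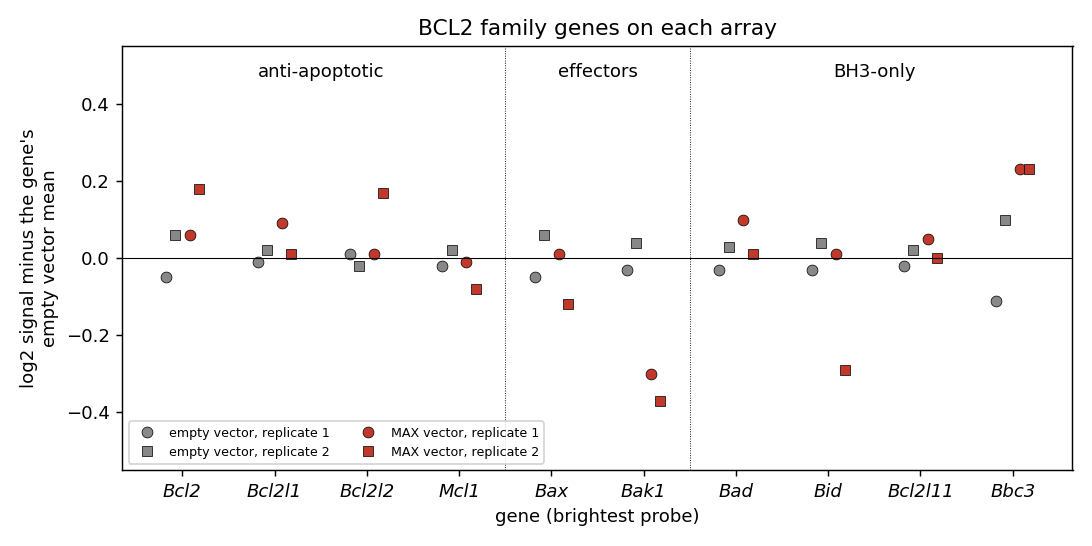
Log2 signal of the main probe of each gene on each of the 4 arrays, minus the gene's mean over the empty vector arrays (grey, empty vector; red, MAX vector; circles, replicate 1; squares, replicate 2). Both MAX vector arrays lie below both empty vector arrays for Bak1 and above them for Bbc3; for Bcl2, 1 MAX vector array is level with the higher empty vector array.

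The anti-apoptotic genes held 0 calls, where 0.840% of all genes tested were called. Bcl2 encodes the founding member of the family. Its probe (RefSeq NM_016993) is printed 10 times on each array, and the probe means were -3.67 and -3.56 on the empty vector arrays against -3.56 and -3.44 on the MAX vector arrays. The 4 arrays thus lay within a narrow band, with 1 MAX vector array level with an empty vector array to 2 decimals. Within an array the SD of single spots was 0.10 to 0.16 on the log2 scale. All 10 spots were well above background on every array, at 42 to 70.2 signal units. The log2 fold change was 0.12 ± 0.10 (95% interval -0.17 to 0.40, limma adjusted p = 0.621). It was 0.06 without empty vector replicate 1 or MAX vector replicate 2, and 0.17 without either of the other arrays.

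Bcl2l1, which encodes the anti-apoptotic protein Bcl-xL, had a main probe (NM_001033670) at 2.51 and 2.54 on the empty vector arrays against 2.61 and 2.53 on the MAX vector arrays. The groups overlapped, and the log2 fold change was 0.04 ± 0.09 (95% interval -0.21 to 0.29, limma adjusted p = 0.842). With 1 array left out it ran from 0.00 without MAX vector replicate 1 to 0.08 without MAX vector replicate 2. A pair of further probes, which carry another accession of the gene (NM_031535), gave 0.17 ± 0.16 and 0.10 ± 0.11 (adjusted p = 0.636 and 0.693 in a fit over all probes). For the first of these, MAX vector replicate 1 stood at -0.96 and the other 3 arrays between -1.35 and -1.32, so that its difference rests on 1 array. The remaining probe of Bcl2l1, also printed 10 times, was well above background in 0 of its spots on any array, with mean signals from -8.09 to -7.60, and it was not tested. Bcl2l1 was thus measured by 3 of its 4 probes.

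Bcl2l2, which encodes Bcl-w, a survival protein best known from neurons and the testis, was at 0.50 and 0.47 on the empty vector arrays against 0.50 and 0.66 on the MAX vector arrays. The groups overlapped, with MAX vector replicate 2 the highest array. Its log2 fold change was 0.09 ± 0.10 (95% interval -0.19 to 0.37, limma adjusted p = 0.699). It was 0.01 without MAX vector replicate 2 and 0.17 without MAX vector replicate 1. The second probe was at -2.74 and -2.61 on the empty vector arrays against -2.47 and -2.55 on the MAX vector arrays, which did not overlap, and gave 0.17 ± 0.10 (adjusted p = 0.48 over all probes).

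Mcl1 encodes an anti-apoptotic protein with a very short half-life, so that its level is known to follow its synthesis closely. Its main probe (NM_021846) was at 2.21 and 2.25 on the empty vector arrays against 2.22 and 2.15 on the MAX vector arrays. The difference was smaller than the gap between the MAX vector arrays, at -0.04 ± 0.09 (95% interval -0.29 to 0.20, limma adjusted p = 0.833), and it ran from -0.08 to -0.01 as each array was left out. The second probe of the same accession lay on the other side of 0, at 0.09 ± 0.10 (adjusted p = 0.702), and neither differed from 0 beyond its error. Mcl1 and Bcl2l1 had the narrowest limits of the anti-apoptotic genes, with a rise of more than 1.15-fold and 1.22-fold outside their intervals.

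**Figure D2:**
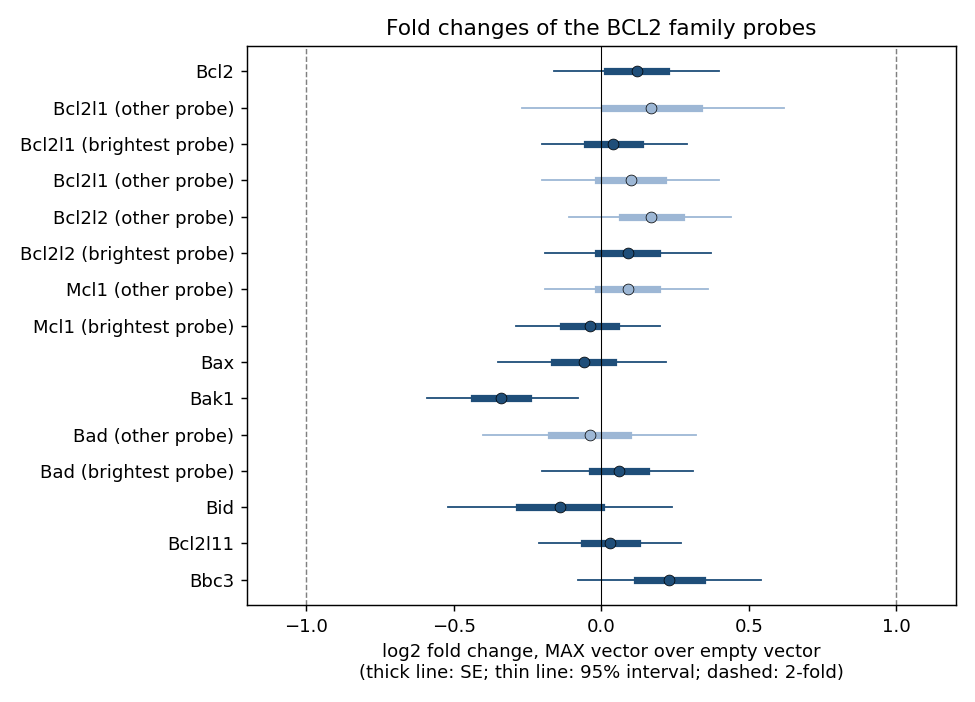
Log2 fold change of the MAX vector over the empty vector for the 15 probes that were tested, with the SE (thick line) and the 95% interval (thin line); dark points are the main probes and dashed lines mark 2-fold. The interval of Bak1, from -0.59 to -0.08, is the only one of the 15 that does not include 0.

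Of the effectors, Bak1 had the largest difference of the family and Bax one within its error. Bak1 (NM_053812) encodes Bak, which resides in the outer mitochondrial membrane. It was at 3.88 and 3.95 on the empty vector arrays against 3.61 and 3.54 on the MAX vector arrays, or 10265 and 9415 against 7200 and 7743 signal units before scaling. Both MAX vector arrays were below both empty vector arrays, and the gap between the groups was wider than the 0.07 between replicates of either group. The log2 fold change was -0.34 ± 0.09, a ratio of 0.793 (95% interval 0.665 to 0.944). It did not pass over all genes (limma unadjusted p = 0.0213, Benjamini-Hochberg adjusted p = 0.227). In all, 23.1% of the genes tested had a log2 fold change at least as far from 0.

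On slide 1 alone, which leaves out MAX vector replicate 1, the log2 fold change of Bak1 was -0.37 ± 0.12 (adjusted p = 0.303). With 1 MAX vector array on a slide of its own, the slide as a block is this same fit. In 15 different alternatives, which process these arrays in another way or leave 1 out, the difference lay between -0.37 and -0.27. Since both MAX vector arrays were below both empty vector arrays, leaving 1 out could not turn its sign. It passed in 0 of the 15, with a lowest limma adjusted p of 0.0753. In some of them, such as the replicate block, 0 of all genes passed. Bak1 has 1 probe, printed once per array, so the arrays hold no second measurement of it.

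Bax encodes the cytosolic effector that moves to mitochondria when activated. Its probe (NM_017059) is printed 10 times per array. The means of these spots were 2.19 and 2.30 with the empty vector and 2.25 and 2.12 in MAX vector cells, and the SD among spots of an array was 0.05 to 0.09. The arrays of the groups interleaved. The log2 fold change was -0.06 ± 0.10 (95% interval -0.35 to 0.23, limma adjusted p = 0.797). It was -0.13 without MAX vector replicate 1 and 0.00 without MAX vector replicate 2. The replicates of a group were 0.11 and 0.13 apart, close to the medians of 0.12 and 0.15 over all genes.

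The BH3-only genes also held 0 calls, against 0.840% of all genes tested. Bbc3 (NM_173837), which encodes Puma, a protein that binds all anti-apoptotic members, was at 2.35 and 2.56 with the empty vector and at 2.69 on both arrays with MAX. The groups did not overlap, but the empty vector arrays were 0.21 apart, nearly the size of the difference between the groups. The log2 fold change was 0.23 ± 0.11 (95% interval -0.08 to 0.55, limma adjusted p = 0.416). Without empty vector replicate 1 it was 0.13, and without empty vector replicate 2 it was 0.34.

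Bid (NM_022684) encodes a protein that caspase-8 cleaves, which links the death receptors to mitochondria. It was at -1.31 and -1.24 on the empty vector arrays against -1.27 and -1.57 on the MAX vector arrays. MAX vector replicate 2 stood below the other 3 arrays, and the log2 fold change was -0.14 ± 0.14 (95% interval -0.52 to 0.24, limma adjusted p = 0.659). Without that array it was 0.01. Bid had the largest SE of the 10 genes.

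Bad (NM_022698) encodes a BH3-only protein that survival kinases switch off by phosphorylation. Its main probe was at 1.79 and 1.85 on the empty vector arrays against 1.92 and 1.83 on the MAX vector arrays, and the groups overlapped. The log2 fold change was 0.06 ± 0.09 (limma adjusted p = 0.789), and its second probe gave -0.04 ± 0.13 (adjusted p = 0.904). The main value ran from 0.02 without empty vector replicate 1 or MAX vector replicate 1 to 0.10 without MAX vector replicate 2.

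Bcl2l11 (NM_171988) encodes Bim, which mediates the death of neurons and PC12 cells deprived of growth factor and is induced by FOXO factors. It was at -2.38 and -2.34 on the empty vector arrays against -2.31 and -2.36 on the MAX vector arrays. The 4 arrays lay closer together than for any other member, and the log2 fold change was 0.03 ± 0.09 (95% interval -0.21 to 0.27, limma adjusted p = 0.886). It ran from 0.01 to 0.06 as each array was left out. A change of more than 1.21-fold upward lay outside this interval.

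**Figure D3:**
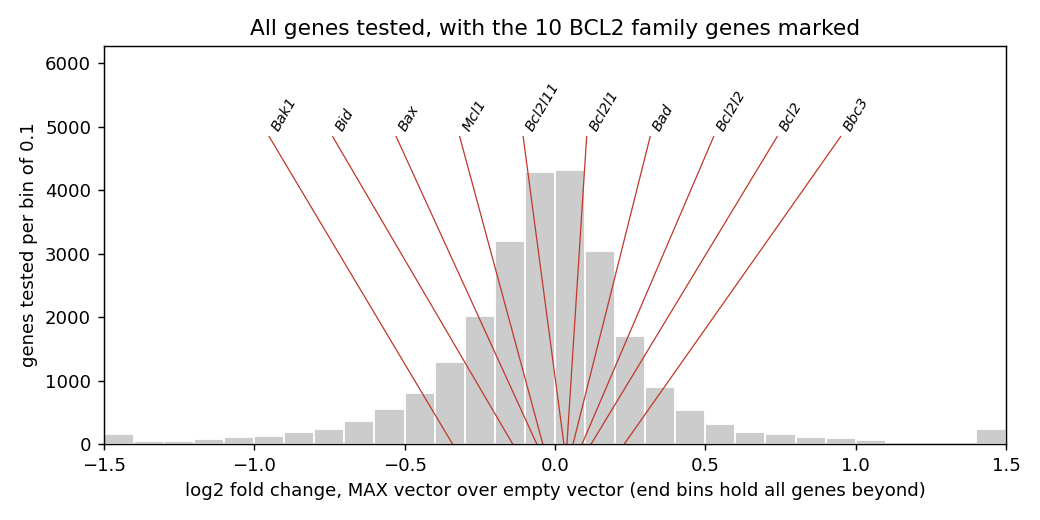
Number of the 25356 genes tested in each bin of 0.1 of the log2 fold change, with the values of the 10 BCL2 family genes marked by red lines (the end bins also hold all genes beyond 1.5). The 10 genes lie between -0.34 and 0.23, in the central part of the distribution.

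MAX dimers bind the E-box CACGTG and, less strongly, variants such as CACGCG, so the promoters of the family were searched for both words on both strands (CACGTG reads the same on either). RefSeq promoters of assembly GRCr8, 250 bases before to 50 after a transcript start, were matched for 8 of the 10 genes, with 11 promoters in all. Of these 11 promoters, 0 hold CACGTG, against 6.42% of all 33469 promoters, and 1 holds CACGCG, against 8.50%. A match is only a run of letters and not a binding site, and the absence of one says nothing of sites outside this window. The 2 sequences below are shown because they are the promoter with a match and the promoter of the gene with the largest difference. The first is part of the Bcl2l11 promoter, at GRCr8 chr3:135819892-135819951 on the plus strand, with the word in capitals; it starts 123 bases before the transcript start. The second is the stretch of 250 bases before the start of Bak1, at GRCr8 chr20:5110975-5111224 on the minus strand, which holds neither word.
Bcl2l11: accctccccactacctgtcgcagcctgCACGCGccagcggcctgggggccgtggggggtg
Bak1: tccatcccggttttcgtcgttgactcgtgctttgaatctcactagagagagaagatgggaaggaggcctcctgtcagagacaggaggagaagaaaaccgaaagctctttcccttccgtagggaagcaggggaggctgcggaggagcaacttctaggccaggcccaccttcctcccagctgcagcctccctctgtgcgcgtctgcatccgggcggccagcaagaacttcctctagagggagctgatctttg
Bcl2l11, with the match, had a log2 fold change of 0.03, and Bak1, without one, had -0.34.

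The relation of anti-apoptotic to effector genes was followed within each array, where scaling between arrays cancels out. Only the change of such a difference between the groups can be read, not its level. For the 4 anti-apoptotic genes against Bak1, the mean difference of log2 signals was higher with MAX by 0.29 to 0.45. Mcl1 minus Bak1 was -1.67 and -1.70 with the empty vector and -1.39 on both arrays with MAX. Bcl2l1 minus Bak1 was -1.37 and -1.41 on the empty vector arrays against -1.0 and -1.01 on the MAX vector arrays, a ratio 1.3 times as high. The replicates of each of these 2 pairs lay within 0.04 of each other. For the pairs with the larger changes the MAX vector arrays lay further apart. They were at -7.17 and -6.98 for Bcl2 minus Bak1 and at -3.12 and -2.89 for Bcl2l2 minus Bak1. Against Bax, the changes were 0.02 to 0.18. The pairs share genes and so are not independent, and the changes against Bak1 hold Bak1's own difference 4 times. No test was made of them, and they describe these 4 arrays. Over 15 different alternatives the changes against Bak1 were 0.20 to 0.54 and those against Bax -0.02 to 0.30.

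**Figure D4:**
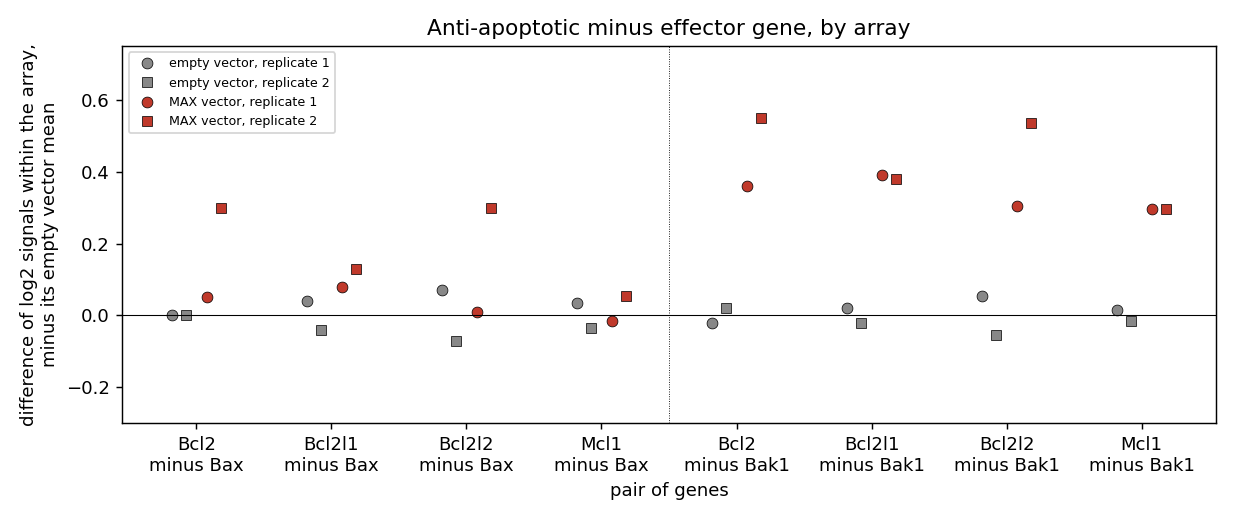
Difference of log2 signals between an anti-apoptotic gene and an effector gene within each array, minus the mean of that difference over the empty vector arrays (grey, empty vector; red, MAX vector). In the 4 pairs with Bak1 the MAX vector arrays lie 0.29 to 0.45 above the empty vector arrays on average, and in the 4 pairs with Bax 0.02 to 0.18.

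Other genes of apoptosis were taken from 7 lists with 73 genes, of which 52 had a probe with a matching accession and 49 were tested. Of the 49, 1 rose and 48 did not pass, with a median log2 fold change of -0.02, and 8 (16.3%) had an unadjusted p under 0.05, 5 higher and 3 lower. The share over all genes was 16.1%. The gene that rose was Tp63, which encodes a transcription factor of stratified epithelia. It was at 1.23 and 1.26 on the empty vector arrays against 2.35 and 2.44 on the MAX vector arrays, a log2 fold change of 1.15 ± 0.09 (limma adjusted p = 0.0397). Its second probe gave 1.10 ± 0.14 (adjusted p = 0.0751). Tp63 was not called in 7 of 15 different alternatives. Among the 7 were the replicate block (adjusted p = 0.131) and the fits with any 1 of the 4 arrays left out. In some of the 7, such as the replicate block and no filter on dim probes, 0 of all genes passed. The missing call there is thus not particular to Tp63. Its log2 fold change was 1.10 or more in each of the 15.

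Among the other BCL2 family genes 8 of 14 were tested and 0 passed. An unadjusted limma p under 0.05 was found for 3 of the 8, all higher, or 37.5% against 16.1% over all genes. This share rests on few genes and was not tested. Bmf, which encodes a BH3-only protein tied to the cytoskeleton, was at -2.35 and -1.83 with the empty vector and -1.0 on both arrays with MAX. Its log2 fold change was 1.09 ± 0.20 (limma adjusted p = 0.139), the widest difference of any BH3-only gene measured. Bnip3l, which encodes a mitochondrial protein of mitophagy, was at 4.00 and 4.24 on the empty vector arrays against 4.81 and 4.79 on the MAX vector arrays, or 0.68 ± 0.12 (adjusted p = 0.131). Both passed in 2 of 15 different alternatives: with the normexp background correction (adjusted p = 0.0125 for Bmf and 0.00395 for Bnip3l) and with a trend of the spread on signal level (0.0339 and 0.0238). Bcl2l14, whose product is a less well characterised member of the family, had 0.40 ± 0.10 (adjusted p = 0.2). Bok, which encodes a further effector, had -0.23 ± 0.10 (adjusted p = 0.372). Hrk and Bcl2a1 were too dim to be tested.

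Downstream of mitochondria, the 7 genes of release and the apoptosome and the 7 other caspase genes and DNA fragmentation factors held 0 calls and 0 unadjusted p-values under 0.05 in limma. Their medians were 0.01 and 0.06. Over all genes tested, 0.840% were called and 16.1% had an unadjusted limma p under 0.05. Lists this short would hold few of either at those shares. Apaf1, the scaffold of the apoptosome, had -0.13 ± 0.09 and Casp9, which it activates, 0.00 ± 0.12. Endog, which encodes a mitochondrial nuclease, had 0.22 ± 0.09 (adjusted p = 0.362), and Opa1, which shapes the cristae, 0.12 ± 0.10. Casp2, Casp6 and Casp8 had 0.16 ± 0.09, 0.20 ± 0.11 and 0.17 ± 0.10, with intervals that include 0. The 9 genes of BCL2 binding partners had a median of -0.09 and also held 0 calls and 0 unadjusted p-values under 0.05. Vdac3, an outer membrane channel gene, had -0.14 ± 0.09, Ywhaz, whose 14-3-3 protein holds phosphorylated Bad, -0.12 ± 0.09 and Becn1, which encodes the autophagy protein Beclin-1, -0.11 ± 0.09. A further probe gave 0.01 ± 0.10 for Becn1, 0.00 ± 0.10 for Opa1 and 0.07 ± 0.11 for Casp9 in the fit over all probes.

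The 4 measured inhibitors of apoptosis held 0 calls and 0 unadjusted p-values under 0.05 in limma. The shares over all genes were 0.840% and 16.1%. Xiap, which blocks caspases directly, had 0.21 ± 0.11, Birc2 -0.17 ± 0.08 and Birc5, which encodes survivin, a protein made mainly in mitosis, -0.25 ± 0.10 (adjusted p = 0.456, 0.417 and 0.355). Without MAX vector replicate 1 Xiap had 0.11, and without MAX vector replicate 2 it had 0.31. Of 6 measured genes of death receptors and their adaptors, 0 passed and 3 had an unadjusted p under 0.05. That is 50% against 16.1% over all genes, a share that rests on few genes and was not tested. Tnfrsf1a, the main receptor of tumour necrosis factor, was at 2.15 and 2.07 on the empty vector arrays against 2.64 and 2.62 on the MAX vector arrays, or 0.52 ± 0.09 (adjusted p = 0.123). Cflar, which encodes the caspase-8 inhibitor FLIP, had -0.57 ± 0.11 and Ngfr, the low-affinity neurotrophin receptor, -0.61 ± 0.13 (adjusted p = 0.148 and 0.168). With normexp these 3 passed (adjusted p = 0.0462, 0.0453 and 0.0427), and Tnfrsf1a also with the trend (0.0244). Of the 8 measured upstream regulators, Myc had -0.02 ± 0.15, Ddit3, which encodes the stress factor CHOP, -0.30 ± 0.10 (adjusted p = 0.284) and Pim1, a survival kinase gene, -0.26 ± 0.10 (0.323).

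**Figure D5:**
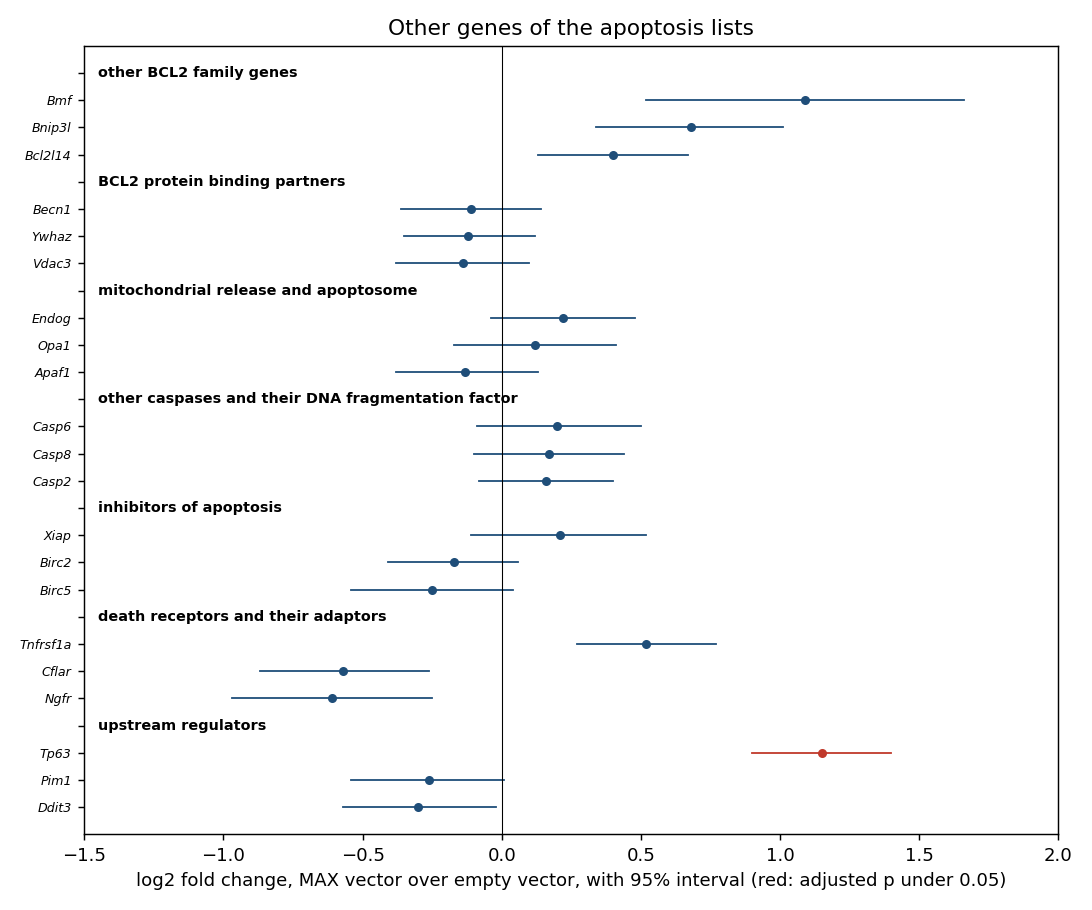
Log2 fold change of the MAX vector over the empty vector with its 95% interval for the genes of the other apoptosis lists with the smallest p-values (up to 3 per list, and each gene that passed), by list; red marks an adjusted p under 0.05. Tp63 is the only gene in red. Of the others, Bmf, Bnip3l, Tnfrsf1a and Bcl2l14 lie to the right of 0 with intervals that do not include it. Cflar, Ngfr and Ddit3 lie to the left of 0, also with intervals that do not include it.

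Across the arrays, between 26411 and 29328 probes were well above background and 0 spots were saturated. Precision is limited by having 4 arrays. The Max probe was well above background on 0 arrays and does not check the labels, since where it lies relative to the plasmid was not analysed here. Of 10 chromaffin markers 9 were tested, with Th higher and Ddc lower, and the log2 of their summed scaled signals was 4.26 to 4.27 with the empty vector and 3.40 to 3.42 with MAX. Ddc alone made up 72.4% to 85.3% of that sum, so it follows Ddc more than the list. All 6 epithelial markers were tested, of which Krt15 and Krt19 rose, and the same measure was 2.93 to 3.0 against 4.37 to 4.42. For macrophage markers (4 of 6 tested, 0 passed) it was 2.28 to 2.48 against 3.14 to 3.19, with Ptprc and Aif1 not tested and 86.7% to 92.5% of the sum from Cd14. For fibroblast markers (4 of 6 tested, 0 passed) it was 7.0 to 7.14 against 7.08 to 7.18, with Col1a1 and Pdgfra not tested and 98.6% to 99.4% of the sum from Col3a1. The fibroblast markers Lum and Dcn had log2 fold changes of -1.19 and 0.75, with unadjusted limma p-values of 0.0122 and 0.0047. Schwann cell markers (3 of 4 tested, 0 passed) had -1.01 to -0.83 against -1.18 to -0.85, with S100b not tested. Endothelial markers rested on Kdr alone, with Pecam1, Cdh5 and Tek not tested, at -5.60 to -5.38 against -3.80 to -3.22. The part of these markers in the differences of Bak1, Bmf and Tp63 was not tested. MAX vector replicate 1 was the only array on slide 2.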

How the data were processed

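The deposited scanner files hold spot intensity written by Feature Extraction 10.7.3.1 with annotation of genome build rn4, per the file headers (the submitters' processing notes give 10.7); background was subtracted within the array. A further deposited table holds log2 values. Its differences between arrays equalled those of log2 processed intensity (Pearson r = 1.0000, with disagreements of SD up to 4.27e-07), which settles scale and direction, while the baseline each probe was centred on stays unknown. Its column medians were -0.033, -0.011, -0.005 and -0.006. Here, control spots and spots with an outlier flag (89 to 140 per array) were left out, log2 signals of a probe were averaged, and the array's 75th percentile over all probes (699, 611, 589 and 665 signal units) was then subtracted. Probes well above background on at least 2 arrays were tested (28564), with the brightest per gene, by limma 3.58.1 in R 4.3.3 (lmFit, eBayes, 3.94 degrees of freedom) without covariates. The fit was also run on simulated data drawn from its own fitted spread. These held no effects of passage, slide or line, so they do not check this design. Symbols came from RefSeq accessions (10768 of 41012 probes named). The members and lists were chosen with earlier results of these data known. Named were all members, every gene of the other lists that passed and up to 3 per list by smallest p; Casp9, Bok and Myc were added after their values were seen. Some genes are not reported here.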

Additional observations from a re-analysis of the deposited data

How the results depend on the processing

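In 16 alternatives, 15 of them different because the slide block and leaving out MAX vector replicate 1 are the same fit, 0 of the 10 BCL2 family genes passed in limma, with 0 to 2 at an unadjusted p under 0.05. The normexp correction (offset 50) was run on the median signals, a choice made after seeing the files, because these hold no mean signals; the version planned was not run. The number of all genes that passed, 213, was 799 with normexp, 575 with scaling by the median, 519 with probes above background on all arrays, 956 with a trend of the spread, 10 with the slide as a block, 0 without a filter on dim probes (4044 at an unadjusted p under 0.05) and 0 to 167 with 1 array left out (1966 and 2453 at an unadjusted p under 0.05 without empty vector replicate 1 and 2, where 0 passed); it was 10 without MAX vector replicate 1. The count of other apoptosis genes, 1, was 6 with normexp, 4 with the trend, 0 with no filter, with the mean of a gene's probes, with the slide as a block and with each array left out. With the replicate block 0 genes passed (3890 at an unadjusted p under 0.05), 0 of the family and 0 of the other lists. Deviations of same-numbered arrays had a correlation of -0.0178, and the labels tie no number to a passage, so the numbers were not taken to pair the arrays. Of 220 fold changes of members and their other probes in the 15 different alternatives, 7 turned sign, each smaller than its own SE. These were Mcl1 with the mean of its probes (0.02), Bid with normexp (0.00) and 1 dim Bcl2l1 probe with the slide as a block (-0.02). With 1 array left out, values ran from -0.13 to 0 for Bax, -0.29 to 0.01 for Bid, -0.02 to 0.37 for that Bcl2l1 probe and -0.16 to 0.08 for the second Bad probe. The cause was not tested. Where a group is left with 1 array, that array is assumed to vary like the others.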
